A study of Mus musculus with 12 samples.

Results

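Untreated tumors of MC38, a mouse colon adenocarcinoma cell line grown in host mice, were described from 6 of the 12 RNA sequencing libraries of a study of BG136, a soluble β-glucan. The 6 libraries are those labelled as tumor tissue after intravenous injection of vehicle, and they were chosen by that label alone. Their labelled numbers are 1, 2, 3, 7, 11 and 12, and each is called here a vehicle replicate by its number. The labels give the genotype as wild type and the cell type as colon adenocarcinoma cells. The host strain, age and sex of the mice, the implantation site, the vehicle and the time of collection are not given. The BG136 libraries enter no value in what follows. The labels do not state that the 6 tumor blocks came from separate animals, so the spread described is that between these libraries.

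A tumor block holds cancer cells together with the leukocytes, fibroblasts, vessels and neighbouring tissue of the host, and bulk sequencing adds their RNA together. MC38 tumors are widely used to study responses to immune checkpoint blockade because they carry many mutations and are infiltrated by T cells and macrophages. Ribosomal, cytoskeletal and metabolic genes are used by every cell, whereas lineage markers such as the T cell receptor subunits (Cd3e) or muscle creatine kinase (Ckm) come from 1 kind of cell.

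The deposited table lists 15170 genes as FPKM, fragments per kilobase of transcript scaled to library size, so levels can be set beside each other across genes. Recovered depth was 15784191 to 18125931 reads per library, and Pearson's r of log2(FPKM + 1) across genes was 0.9708 to 0.9934 over the 15 pairs of libraries. Genes are not independent of each other, and this r has no test. No pair agreed within sampling noise: chi-square per gene was 9.03 to 57.4, so all 6 libraries were kept as separate samples. Replicate 11, the shallowest, stood apart on the first principal component, which held 55.8% of the variance, with a score of 28.8 against -16.4 to 10.9 in the others. Replicate 3 and replicate 11 also held skeletal muscle transcripts that the other libraries nearly lacked. The main counts and lists that rest on these libraries are given with and without them.

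Of the 15170 genes, 11390 (75.1%) had a mean of at least 1 FPKM over the 6 libraries, the level used below for a gene that counts as measured. The gene just above that level was Gpr4, a proton-sensing receptor, at 1.002 FPKM, and the gene just below it was Lrrc56 at 0.99999 FPKM. The distribution was steep. A mean of at least 10 FPKM was reached by 6036 genes, of at least 100 FPKM by 644 genes and of at least 1000 FPKM by 53 genes. The 436 highest genes made up 50% of the summed FPKM, and the first 25 made up 13.2%.

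The head of the ranking was taken by the translation machinery, iron storage, actin and intermediate filament genes, and MHC class I. Rpl41, a ribosomal protein, was first with 4910 ± 575 FPKM (SD, n = 6). Eef1a1, the elongation factor that carries tRNA to the ribosome, followed with 4626 ± 263 FPKM, and B2m, the light chain of MHC class I, was the third with 4138 ± 202 FPKM. Lgals1, which encodes galectin-1, ranked next with 3416 ± 524 FPKM. Of the first 25 genes, 15 encode ribosomal proteins, as do 52 of the first 100. The others among the 25 include the ferritin subunits Fth1 (2092 ± 135 FPKM) and Ftl1 (1844 ± 255 FPKM), Actb (2106 ± 179 FPKM), the intermediate filament gene Vim (1837 ± 148 FPKM), the MHC class I heavy chain gene H2-D1 (1653 ± 110 FPKM), Tpt1 (1530 ± 197 FPKM) and the constitutive chaperone Hspa8 (1334 ± 320 FPKM). All 77 ribosomal protein genes listed had a mean of at least 1 FPKM, and together they made up 17.76% ± 1.04 of the summed FPKM (SD, n = 6). The means of Rpl41 and Eef1a1 lay closer together than the SD of Rpl41 between libraries, so which of them is first is not resolved. Eef1a1 exceeded B2m in each of the 6 libraries.

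**Figure D1:**
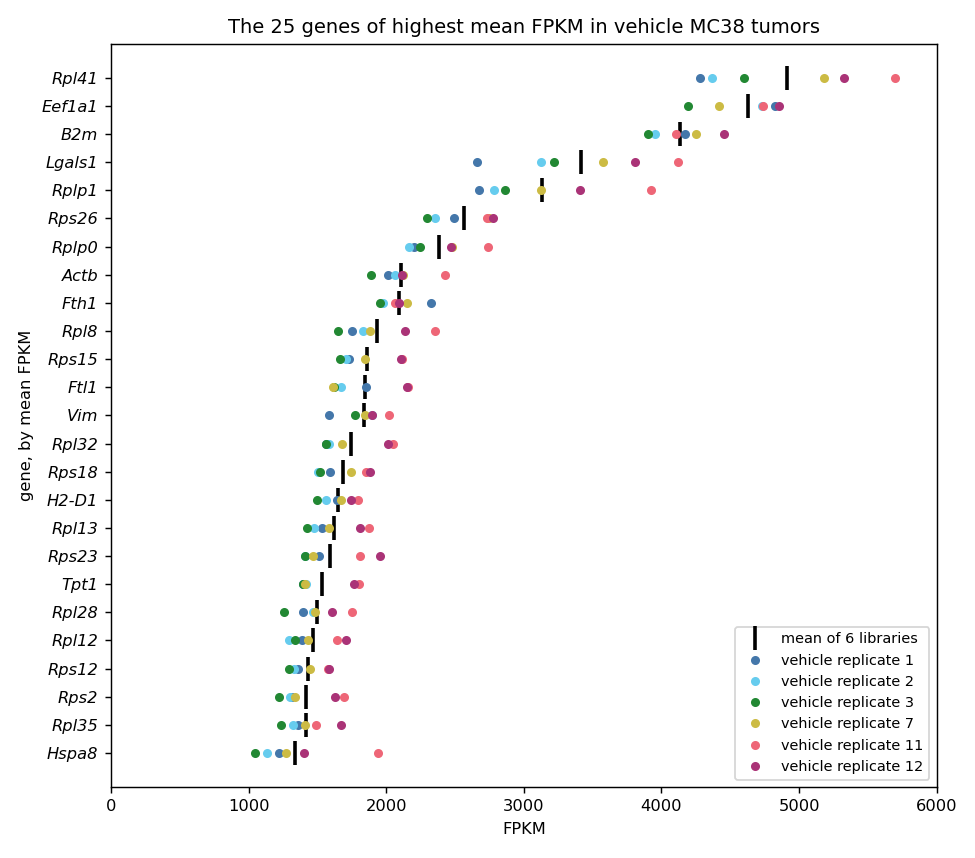
FPKM of the 25 genes with the highest mean, one row per gene from the highest down; each dot is 1 of the 6 vehicle libraries and the black bar is their mean. Rpl41 averages 4910 FPKM and Hspa8 1334 FPKM, and replicates 11 and 12 lie to the right of the mean for most of the ribosomal protein genes.

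Genes were then grouped into a tumor cell, an immune and a stromal class by lists of known markers and pathways. The tumor cell class took 10.47% ± 0.26 of the summed FPKM over its 167 listed genes, the immune class 5.26% ± 0.32 over 187 genes, and the stromal class 1.29% ± 0.21 over 110 genes (SD, n = 6 each). The tumor cell class holds proliferation, metabolic and cytoskeletal genes that host cells use too, so these are shares of RNA over chosen genes and not shares of cells. In bulk samples fewer cells of a type and less RNA per cell cannot be told apart. The immune share was 4.98% to 5.8% across libraries and was highest in replicate 7. The stromal share was 1.03% to 1.59%, lowest in replicate 7 and highest in replicate 1. The tumor cell share was 10.06% to 10.75%.

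Within the tumor cell class, mesenchymal genes stood high and epithelial genes low. Of 15 genes of epithelial structure, 7 had a mean of at least 1 FPKM. The median of the means of all 15 was 0.5515 FPKM, against 6.408 FPKM over all listed genes. Galectin-3 (Lgals3) was the exception with 229 ± 29.5 FPKM, but macrophages and other cells also make it. The keratins of simple epithelia were low: Krt19 had 7.45 ± 1.62 FPKM, Krt18 4.11 ± 1.95 FPKM and Krt8 3.75 ± 1.59 FPKM (SD, n = 6 each). E-cadherin (Cdh1) had 2.83 ± 0.80 FPKM and the epithelial adhesion molecule Epcam 1.27 ± 0.466 FPKM. Krt18 had 7.59, 3.07, 3.13, 3.56, 2.22 and 5.08 FPKM in replicates 1, 2, 3, 7, 11 and 12. It was highest in replicate 1 and lowest in replicate 11, as was Krt8 (6.67 and 2.00 FPKM there), its filament partner.

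The labelled colon origin was checked against markers of intestinal identity. Of 19 such genes 10 are listed in the table, and 2 of these had a mean of at least 1 FPKM, among them Lgals4, a galectin of the intestinal lining, with 1.58 ± 0.419 FPKM. The microvillus protein gene Vil1 had 0.0466 ± 0.0541 FPKM and the goblet cell mucin gene Muc2 0.0423 ± 0.0264 FPKM, both near 0. The stem cell receptor Lgr5 had 0.210 ± 0.0762 FPKM. Cdx1, Cdx2, Car1, Slc26a3, Fabp1, Fabp2, Guca2a, Hnf4a and Tff3 were not analysed here. The cadherin gene Cdh17, another marker of intestinal epithelium, had 0.108 ± 0.0724 FPKM, so the labelled colon cell type is not borne out by Vil1, Muc2 or Cdh17, which lay at or near 0 in every library.

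All 15 mesenchymal genes had a mean of at least 1 FPKM, with a median of 75.11 FPKM. Besides Lgals1 and Vim, the small calcium-binding proteins S100a6 (1312 ± 343 FPKM) and S100a4 (1063 ± 229 FPKM) stood among the 53 genes above 1000 FPKM. The transcription factors of this programme were lower, with Snai1 at 69.3 ± 6.59 FPKM, Twist1 at 34.7 ± 4.71 FPKM, Zeb2 at 12.3 ± 3.41 FPKM and Zeb1 at 5.23 ± 1.18 FPKM. N-cadherin (Cdh2) was the lowest with 1.58 ± 0.115 FPKM. Fibroblasts and macrophages use most of these genes as well, and how much of each comes from the cancer cells was not tested. S100a6 had 820, 1157, 1200, 1318, 1801 and 1575 FPKM in replicates 1, 2, 3, 7, 11 and 12, so that replicate 11 held the highest and replicate 1 the lowest level.

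Proliferation genes were expressed in every library and differed little between them. All 28 had a mean of at least 1 FPKM, with a median of 55.88 FPKM. The cell cycle kinase Cdk4 led with 304 ± 40.1 FPKM, followed by the replication clamp Pcna with 199 ± 10.4 FPKM and cyclin D1 (Ccnd1) with 176 ± 16.7 FPKM. Topoisomerase Top2a had 114 ± 8.92 FPKM and the mitotic kinase gene Plk1 46.6 ± 2.06 FPKM. The median SD of log2(FPKM + 1) over these genes was 0.118, against 0.155 over all genes with a mean of at least 1 FPKM. Mki67, the long transcript behind the Ki-67 stain, varied more (SD 0.392) and was lowest in replicate 11, with 23.2 FPKM against 30.8 to 48.3 FPKM in the other libraries.

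Among cancer drivers and mismatch repair genes all 26 were above the level of 1 FPKM, with a median of 15.33 FPKM. Myc had 95.4 ± 11.8 FPKM, β-catenin (Ctnnb1) 85.0 ± 4.86 FPKM and Trp53 77.0 ± 4.20 FPKM. Cdkn2a, which encodes cell cycle inhibitors lost in many tumors, was at 15.9 ± 1.57 FPKM. The mismatch repair genes ran from Msh6 (21.5 ± 0.688 FPKM) down to Msh3 (4.39 ± 0.567 FPKM) and Pms2 (2.50 ± 0.149 FPKM). Genes that give rise to known MC38 neoantigens were all expressed, with a median of 24.76 FPKM over 8 genes. Among them Reps1 had 26.8 ± 0.737 FPKM, Dpagt1 22.7 ± 1.37 FPKM and Adpgk 22.4 ± 2.29 FPKM, and the ribosomal protein gene Rpl18 had 502 ± 63.6 FPKM. Which allele these reads came from was not analysed here.

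Glycolytic enzymes were among the most abundant transcripts. Enolase (Eno1) had 924 ± 84.3 FPKM, triose phosphate isomerase (Tpi1) 627 ± 67.4 FPKM and aldolase (Aldoa) 559 ± 47.2 FPKM, and lactate dehydrogenase (Ldha) had 239 ± 23.6 FPKM. Gapdh was listed at 148 ± 9.65 FPKM, below its pathway neighbours; it has many processed pseudogenes of like sequence, so its level is uncertain. Genes that respond to low oxygen were expressed at lower levels: the glucose transporter Slc2a1 had 112 ± 28.8 FPKM, Vegfa 72.6 ± 14.9 FPKM and the carbonic anhydrase Car9 4.27 ± 1.36 FPKM. Slc2a1 had 151, 140, 87.9, 99.1, 79.0 and 112 FPKM in replicates 1, 2, 3, 7, 11 and 12, highest in replicates 1 and 2. Oxidative phosphorylation genes had a median of 127.9 FPKM over 25 genes, led by the ATP synthase subunit Atp5b with 786 ± 79.2 FPKM.

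Among the lists of immune cell types, that of monocytes and macrophages stood highest; the MHC lists, given below, had higher medians. All 17 monocyte and macrophage genes were above 1 FPKM, with a median of 67.42 FPKM, and all 7 pan-leukocyte genes, with a median of 60.78 FPKM. Lysozyme (Lyz2) had 1171 ± 150 FPKM and the lysosomal protease gene Ctss 598 ± 68.2 FPKM. Apolipoprotein E (Apoe) had 967 ± 159 FPKM, and the complement subunits C1qa, C1qb and C1qc, which mark resident-like tumor macrophages, had 467 ± 72.7, 454 ± 68.4 and 430 ± 59.4 FPKM. The leukocyte phosphatase gene Ptprc, which encodes CD45, had 25.8 ± 5.01 FPKM. The receptor gene Csf1r had 67.4 ± 7.68 FPKM and Adgre1, which encodes F4/80, had 32.4 ± 3.08 FPKM. Arginase (Arg1) had 106 ± 40.1 FPKM and the inducible nitric oxide synthase Nos2 14.8 ± 6.09 FPKM. Clec7a, the β-glucan receptor Dectin-1, had 54.8, 40.3, 39.1, 36.0, 17.6 and 31.2 FPKM in replicates 1, 2, 3, 7, 11 and 12, so it was expressed in every library and lowest in replicate 11.

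T cell transcripts were present at a level near that of the median gene. All 15 listed T cell genes were above 1 FPKM, with a median of 5.767 FPKM, against 6.408 FPKM over all genes. The CD3 subunits Cd3g, Cd3e and Cd3d had 24.2 ± 5.21, 11.3 ± 1.47 and 7.94 ± 1.499 FPKM. Cd8a, the co-receptor of cytotoxic T cells, had 11.6, 9.69, 15.03, 18.3, 12.6 and 12.3 FPKM in replicates 1, 2, 3, 7, 11 and 12. Cd4, which helper T cells and some other leukocytes use, had 6.56, 5.63, 6.79, 3.87, 7.14 and 4.61 FPKM in the same order. Cd8a exceeded Cd4 in each of the 6 libraries, and replicate 7 had the highest Cd8a and the lowest Cd4. The T cell receptor constant genes Trac, Trbc1 and Trbc2 were not analysed here.

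Regulatory T cell genes had a median of 2.192 FPKM over 7 genes and checkpoint genes 5.741 FPKM over 11 genes. Foxp3, the transcription factor of regulatory T cells, had 0.852 ± 0.247 FPKM, Ctla4 2.19 ± 0.610 FPKM, and the costimulatory receptors Tnfrsf18 and Tnfrsf4 had 8.10 ± 1.02 and 6.77 ± 1.12 FPKM. The gene of PD-1, Pdcd1, had 4.22, 4.25, 5.98, 4.16, 2.26 and 6.04 FPKM in replicates 1, 2, 3, 7, 11 and 12. The gene of its ligand PD-L1, Cd274, was higher, with 41.1, 34.0, 32.9, 35.8, 16.1 and 23.5 FPKM in the same order. Both genes were lowest in replicate 11. Lag3 had 5.74 ± 1.02 FPKM and Havcr2, which encodes TIM-3, had 9.15 ± 1.31 FPKM.

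Cytotoxic effector genes had a median of 5.115 FPKM over 13 genes. The chemokine Ccl5 led with 183 ± 14.8 FPKM, granzyme B (Gzmb) had 26.5 ± 5.21 FPKM, perforin (Prf1) 4.85 ± 1.28 FPKM and interferon γ (Ifng) 2.62 ± 0.278 FPKM. Of 8 natural killer cell genes 3 reached 1 FPKM. The defining receptors were near 0: Ncr1 had 0.274 ± 0.115 FPKM and Klrb1c 0.272 ± 0.159 FPKM. Klrd1 and Klrk1, which activated CD8 T cells also carry, had 4.97 ± 0.946 and 3.70 ± 0.798 FPKM. Klra4, from a family of similar receptor genes among which reads may be shared, was listed at 46.0 ± 5.99 FPKM. B cell genes were near 0 too, with Cd79a at 0.770 ± 0.265 FPKM, while the antibody joining chain gene Jchain had 9.55 ± 1.84 FPKM. Dendritic cell genes had a median of 1.643 FPKM over 13 genes; Xcr1, which marks cross-presenting dendritic cells, had 0.382 ± 0.223 FPKM, whereas Fscn1, an actin bundler that tumor cells also use, had 172 ± 21.6 FPKM. Mast cell tryptase (Tpsb2) had 7.01 ± 2.30 FPKM and mast cell chymase (Mcpt4) 3.93 ± 1.43 FPKM. Neutrophil genes were mixed. Mmp9, which macrophages also make, had 41.8 ± 9.10 FPKM, S100a8 and S100a9 had 6.22 ± 2.70 and 7.20 ± 3.00 FPKM, and the granule enzyme gene Mpo had 0.0186 ± 0.0220 FPKM.

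Antigen presentation and interferon genes were strongly expressed in all 6 libraries. All 10 MHC class I pathway genes were above 1 FPKM, with a median of 210.1 FPKM, and their median SD was 0.119. H2-K1 had 1303 ± 101 FPKM and the peptide transporter Tap1 130 ± 3.92 FPKM. MHC class II genes had a median of 293.0 FPKM over 7 genes, led by the invariant chain Cd74 (1185 ± 212 FPKM) and H2-Ab1 (601 ± 106 FPKM). The interferon response genes had a median of 95.27 FPKM over 17 genes, with Gbp2 at 381 ± 44.1 FPKM. Of the chemokines, Cxcl10 had 535 ± 41.3 FPKM, Ccl2, which draws in monocytes, 317 ± 48.7 FPKM, and Cxcl9, which draws in T cells, 143 ± 29.0 FPKM. The cytokine genes Il6 (0.364 ± 0.166 FPKM) and Il10 (0.349 ± 0.177 FPKM) were under 1 FPKM.

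The stromal class was led by matrix genes. All 30 fibroblast and matrix genes were above 1 FPKM, with a median of 68.62 FPKM. Fibronectin (Fn1) had 928 ± 276 FPKM, collagen III (Col3a1) 735 ± 110 FPKM, the matricellular protein gene Sparc 565 ± 54.5 FPKM and collagen I (Col1a1) 179 ± 48.5 FPKM. The fibroblast receptor gene Pdgfra had 22.9 ± 4.36 FPKM. Blood vessel genes had a median of 5.385 FPKM over 15 genes, with Plvap at 31.5 ± 4.09 FPKM and Pecam1 at 19.6 ± 3.299 FPKM. Of the lymphatic list, Pdpn, which fibroblasts and tumor cells also use, had 84.2 ± 3.78 FPKM, whereas the lineage factor Prox1 was near 0 with 0.0168 ± 0.0212 FPKM. Fat cell genes had a median of 2.815 FPKM over 12 genes, with adiponectin (Adipoq) at 5.58 ± 1.95 FPKM. The fatty acid binding protein gene Fabp4, which macrophages and endothelium also use, had 49.6 ± 10.2 FPKM. Pericyte and smooth muscle genes had a median of 4.726 FPKM over 11 genes, with Acta2 at 16.2 ± 3.99 FPKM and Rgs5 at 10.5 ± 2.69 FPKM. Skin genes were low, with a median of 0.5865 FPKM over the 7 listed, and Krt14 of basal keratinocytes had 6.23 ± 1.77 FPKM. Of the nerve list, the tubulin gene Tubb3, which dividing tumor cells also use, had 44.9 ± 5.18 FPKM, whereas the Schwann cell factor Sox10 had 0.217 ± 0.0939 FPKM. Globin genes were traceable in each library, with Hbb-bs at 15.9 ± 4.36 FPKM. No listed member of any marker list was at 0 in all 6 libraries, but only 1 of all 15170 listed genes was. Markers that are not listed were not counted.

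**Figure D2:**
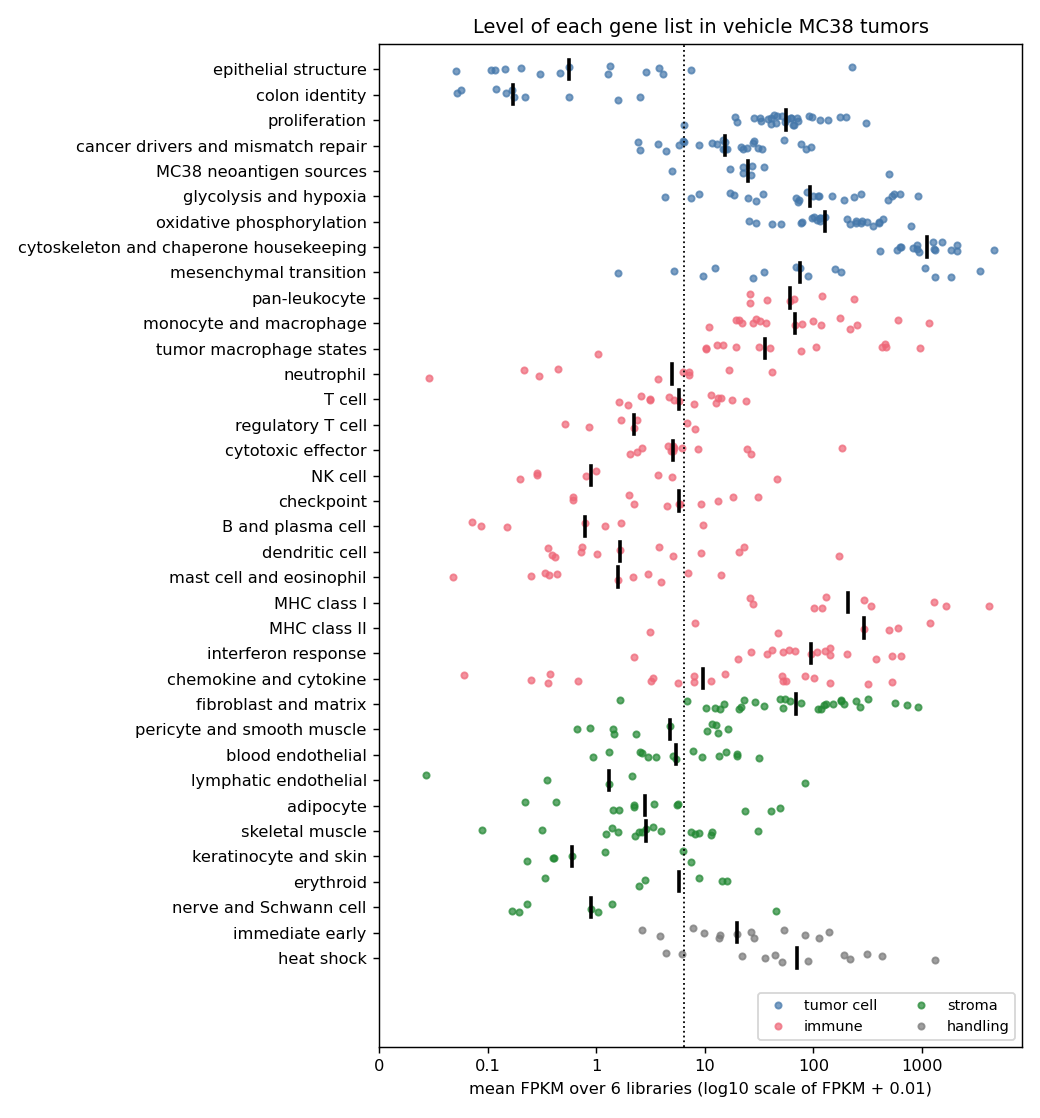
Mean FPKM over 6 vehicle libraries (horizontal axis, log10 scale of FPKM + 0.01) of every listed member of 36 gene lists, coloured by class; the black bar is the list's median and the dotted line the median of all 15170 genes, 6.408 FPKM. Housekeeping, metabolic, MHC and macrophage lists lie right of the line, and colon identity, B cell and skin lists lie left of it.

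The spread between libraries was measured as the SD of log2(FPKM + 1) over the 6 libraries, for the 11390 genes with a mean of at least 1 FPKM. The median SD was 0.155, with quartiles of 0.106 and 0.218 and a 95th percentile of 0.353. Counting error alone, taken from the recovered reads, gave a median SD of 0.0485, and the observed SD was a median of 2.99 times the counting SD. An SD of at least 0.5 was reached by 137 genes (1.2%), and of at least 1 by 25 genes. Of all 11390 genes, 2995 had an observed SD under 2 times the counting SD. None of the 137 genes did, which their choice by SD nearly fixed in advance, as most counting SDs were far below 0.5. By class, 1 of the 151 tumor cell genes with a mean of at least 1 FPKM reached an SD of 0.5, as did 17 of the 155 immune genes and 20 of the 92 stromal genes. Of the 20 stromal genes 15 were skeletal muscle genes, and without that list 5 of 77 reached an SD of 0.5. Median SDs were 0.171, 0.246 and 0.317 in the tumor cell, immune and stromal classes, and 0.273 in the stromal class without the muscle list. Without replicate 11 the counts were 0, 10 and 20, and without replicates 3 and 11 they were 0, 9 and 9. As for the lists, 30 of the 35 lists with at least 3 measured members had a median SD above that of all genes. By level, the median SD was 0.169 for means of 1 to 5 FPKM, 0.153 for 5 to 20 FPKM, 0.14 for 20 to 100 FPKM and 0.172 above, while the share of genes with an SD of at least 0.5 was 2.06%, 1.15%, 0.62% and 0.31%. The tumor cell gene was Krt18, with an SD of 0.502, just above the limit.

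The variable genes were not spread evenly over the libraries. Of the 137 genes, 53 were highest in replicate 1, where 15.4% of all 11390 genes were highest, and 41 were highest in replicate 3, against 19.4% of all genes. Replicates 2, 7, 11 and 12 held the highest value of 13, 12, 14 and 4 of them, where 10.2%, 12.6%, 31.5% and 10.9% of all genes were highest. Replicate 11 was the lowest for 68 of the 137, against 31.5% of all genes. Without replicates 3 and 11, a set chosen after seeing the values, 90 genes reached an SD of 0.5.

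**Figure D3:**
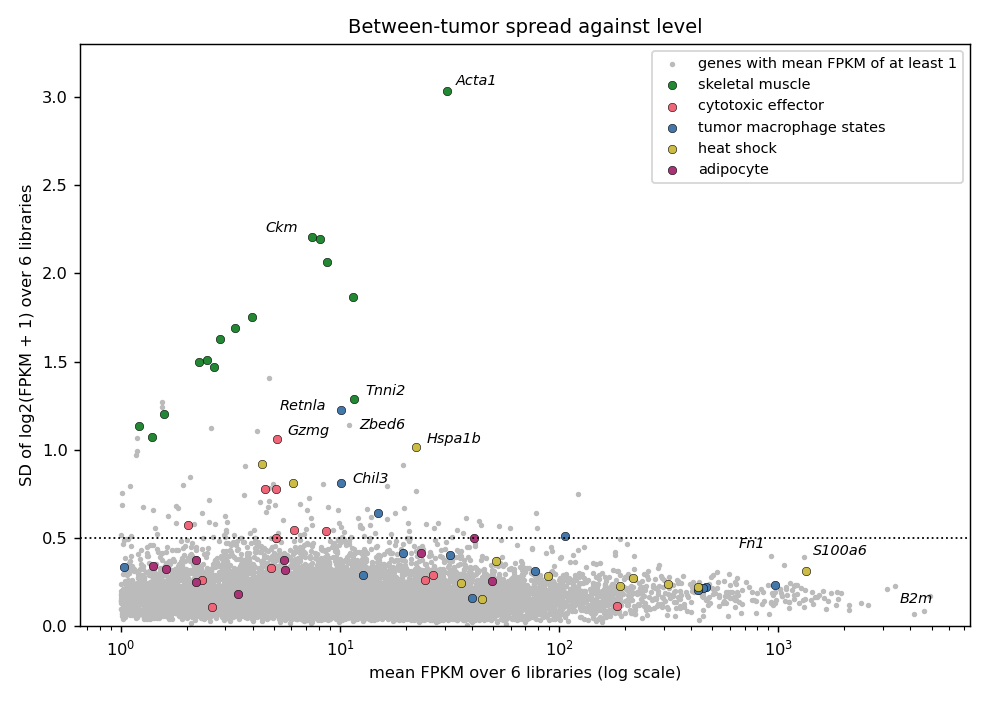
SD of log2(FPKM + 1) over 6 vehicle libraries against mean FPKM (log axis), one grey dot for each of 11390 genes and coloured dots for members of 5 lists; the dotted line marks an SD of 0.5. Skeletal muscle genes lie far above the cloud, up to 3.04 for Acta1, and members of the cytotoxic, macrophage state and heat shock lists stand out below them.

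The largest spread belonged to skeletal muscle genes, which were high in 2 libraries and nearly absent from the other 4. Of the 20 genes with the highest SD, 14 were on the skeletal muscle list. All 15 muscle genes with a mean of at least 1 FPKM had an SD of at least 0.5, against 1.2% of all 11390 genes. Their median SD was 1.63. Skeletal muscle actin, Acta1, had 0.262, 0.632, 114, 1.68, 67.4 and 0.147 FPKM in replicates 1, 2, 3, 7, 11 and 12. Muscle creatine kinase, Ckm, which buffers ATP in muscle fibres, had 0.166, 0.0780, 29.7, 0.497, 14.2 and 0 FPKM in the same order. In both genes replicate 3 was highest, replicate 11 next, and the groups of high and low libraries did not overlap. All 15 genes were highest in replicate 3, and in all 15 both replicates 3 and 11 exceeded the other 4 libraries, a pattern that 5.22% of all 11390 genes share. Most of them, among them Acta1 and Ckm, reached a mean of 1 FPKM only through replicates 3 and 11. Another is the myosin gene Myh2, with 5.92 and 1.25 FPKM there and 0 to 0.0386 FPKM elsewhere. For such genes a high SD and this order follow largely from the minimum mean, so these counts are no separate evidence. Tnni2 and Mylpf, with at least 2.59 and 1.00 FPKM in every library, passed the minimum without replicates 3 and 11.

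The other muscle genes followed the same order. The fast troponin subunit Tnnc2 had 31.1 and 15.9 FPKM in replicates 3 and 11 and 0 to 1.02 FPKM elsewhere, and the fast myosin light chain Mylpf had 37.9 and 24.2 FPKM there and 1.00 to 2.05 FPKM elsewhere. The calcium pump gene Atp2a1 had 17.1 and 5.97 FPKM in replicates 3 and 11, and myoglobin (Mb) 12.5 and 2.68 FPKM. Some genes outside the list had this order too. Desmin (Des) had 13.4 and 10.95 FPKM in replicates 3 and 11 against 0.880 to 1.32 FPKM in the others. Csrp3, a muscle LIM protein, had 5.82 and 3.39 FPKM against 0 to 0.0567 FPKM. Des and Csrp3 were named for their high SD, so their spread is no separate evidence. Csrp3 also reached a mean of 1 FPKM only through replicates 3 and 11. Summed over the 17 listed muscle genes, the level was 6.04, 9.79, 368, 12.7, 197 and 6.24 FPKM in replicates 1, 2, 3, 7, 11 and 12. With replicates 3 and 11 left out, the median SD of the 15 genes was 0.129 and 1 of them reached 0.5; the SD of Acta1 was 0.548 and that of Ckm 0.253.

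The promoters of these muscle genes are shown because they are the genes that vary most together. Both come from RefSeq on build GRCm38.p6, from 250 bases before to 50 bases after the annotated start; the table itself was made on GRCm39 per the submitters' processing notes. Acta1 is at chr8:123894726-123895025 on the minus strand and Ckm at chr7:19410844-19411143 on the plus strand. Capitals mark CAGCTG, an E-box of the kind read by myogenic factors, which was searched on both strands.
Acta1: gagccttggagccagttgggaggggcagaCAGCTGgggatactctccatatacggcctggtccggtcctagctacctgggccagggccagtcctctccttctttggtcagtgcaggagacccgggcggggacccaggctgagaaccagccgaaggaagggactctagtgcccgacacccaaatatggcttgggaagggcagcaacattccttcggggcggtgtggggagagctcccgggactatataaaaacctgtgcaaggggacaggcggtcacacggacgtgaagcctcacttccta
Ckm: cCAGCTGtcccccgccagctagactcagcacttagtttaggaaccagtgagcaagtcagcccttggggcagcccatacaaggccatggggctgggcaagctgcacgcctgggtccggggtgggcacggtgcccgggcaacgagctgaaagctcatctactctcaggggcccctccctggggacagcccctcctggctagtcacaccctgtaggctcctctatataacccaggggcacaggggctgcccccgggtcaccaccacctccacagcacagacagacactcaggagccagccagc
Of the 12 muscle genes with a promoter in the table, 7 hold CAGCTG, as do 16.3% of all 32851 promoters, and 5 hold TATAAA, as do 13.6%. The broader motif CANNTG, which contains CAGCTG, is in 10 of the 12 and in 72.3% of all. The list counts are per gene, and some genes have several promoters, whereas the shares are per promoter. A match of letters is a description and not a binding site.

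Heat shock genes did not share 1 order. The list scored 0.30 in replicate 2 and 0.28 in replicate 11, and 7 of its 12 genes were highest in replicate 11, against 31.5% of all genes. Of the 12 genes, 3 had an SD of at least 0.5, against 1.2% of all measured genes: Hspa1b (1.02), Hspa1a (0.918) and Hspb1 (0.811). Hspa1b, a stress-induced HSP70 chaperone, had 26.6, 62.0, 11.1, 9.20, 13.2 and 10.6 FPKM in replicates 1, 2, 3, 7, 11 and 12. Hspa1a, its near-identical neighbour, had 4.83, 13.2, 2.36, 1.57, 2.17 and 2.21 FPKM in the same order. Both were highest in replicate 2 and next in replicate 1, with the other 4 libraries close together. Because the genes are so alike, reads may be shared between them, and their separate levels are uncertain. The small chaperone gene Hspb1 had another order, with 13.5 FPKM in replicate 11 and 9.10 FPKM in replicate 3, and 2.34 to 4.80 FPKM in the others. Hspb1 is also abundant in muscle, and all 17 listed muscle genes summed to 368 and 197 FPKM in replicates 3 and 11 against 6.04 to 12.7 FPKM in the others; their part in the level of Hspb1 was not tested. The constitutive Hspa8 was highest in replicate 11 with 1939 FPKM, against 1043 to 1402 FPKM in the others.

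The promoters of the inducible pair are shown for their likeness, from the same RefSeq table and build; both lie on the minus strand, Hspa1b at chr17:34959189-34959488 and Hspa1a at chr17:34972107-34972406. They differ at 4 of 300 bases, and capitals mark GAANNTTC, the paired repeat of the heat shock element, searched on both strands.
Hspa1b: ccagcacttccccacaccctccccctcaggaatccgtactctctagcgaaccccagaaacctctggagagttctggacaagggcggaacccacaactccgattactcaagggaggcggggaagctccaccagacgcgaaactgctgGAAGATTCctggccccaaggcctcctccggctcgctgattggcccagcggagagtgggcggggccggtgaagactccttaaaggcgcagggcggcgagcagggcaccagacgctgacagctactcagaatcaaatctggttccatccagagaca
Hspa1a: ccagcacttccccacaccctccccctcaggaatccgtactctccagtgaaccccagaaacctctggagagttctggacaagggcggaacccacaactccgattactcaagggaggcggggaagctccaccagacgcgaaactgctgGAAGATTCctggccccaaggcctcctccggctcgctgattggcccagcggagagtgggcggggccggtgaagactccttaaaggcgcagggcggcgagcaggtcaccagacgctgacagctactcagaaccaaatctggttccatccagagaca
GAANNTTC is in 8 of the 10 heat shock genes with a promoter in the table and in 7.86% of all promoters. The list count is per gene, and some genes have several promoters, whereas the share is per promoter. The near-identical promoters of Hspa1b and Hspa1a are counted separately. The longer form of the element, which adds a further repeat on the right, is in 3 of the 10 and in 0.597% of all.

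Immediate early genes, which are induced within minutes of a stimulus or of tissue handling, were highest in replicate 2 for 7 of 13 members, against 10.2% of all genes. Egr1 had 32.5, 33.2, 12.5, 11.95, 12.4 and 15.4 FPKM in replicates 1, 2, 3, 7, 11 and 12, and Fos had 7.79, 17.8, 10.9, 8.29, 6.25 and 7.59 FPKM. Egr1 was thus high in the same 2 libraries as Hspa1b, and Fos in replicate 2. The more abundant family members Fosl1 (139 ± 11.5 FPKM) and Jun (112 ± 13.2 FPKM) varied less, with SDs of 0.117 and 0.159. No label records the time before freezing or other handling, and their part in these values was not tested.

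Replicate 1 stood out for genes of alternatively activated macrophages, epithelial keratins and matrix. Retnla, a secreted resistin-like protein of interleukin-4-activated mouse macrophages, had 35.9, 1.84, 6.06, 6.94, 5.74 and 4.38 FPKM in replicates 1, 2, 3, 7, 11 and 12. Chil3, a chitinase-like protein of the same state, had 21.7, 4.59, 13.9, 5.30, 9.92 and 5.41 FPKM. Replicate 1 was highest for both, well apart from the others for Retnla and less so for Chil3. Arg1 had 177 FPKM in replicate 1 and 62.6 to 118 FPKM elsewhere, and the mannose receptor Mrc1 had 32.1 FPKM there and 13.9 to 19.4 FPKM elsewhere. Of the 14 genes of tumor macrophage states, 8 were highest in replicate 1, against 15.4% of all genes. The C1q genes and Apoe did not share this order: C1qa had 381 FPKM in replicate 1, the lowest of the 6, and 585 FPKM in replicate 11.

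A list score is the deviation of log2(FPKM + 1) from the 6-library mean, averaged over members with a mean of at least 1 FPKM. It put tumor macrophage states at 0.45 in replicate 1 and at -0.17 to 0.04 in the others. Retnlg, a neutrophil product related to Retnla, also peaked in replicate 1, with 10.2 FPKM against 0.579 to 3.42 FPKM. Matrix genes were highest in replicate 1 for 17 of 30 members, against 15.4% of all genes, with a list score of 0.29 there and -0.31 in replicate 7. Fn1 had 1407, 1084, 892, 723, 673 and 788 FPKM in replicates 1, 2, 3, 7, 11 and 12, and Col1a1 had 253, 198, 195, 114, 174 and 142 FPKM. Both were highest in replicate 1, and Col1a1 was lowest in replicate 7. Timp1, a matrix protease inhibitor on the same list, hardly differed between libraries, with 110 ± 2.10 FPKM.

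Replicate 7 stood out for cytotoxic and MHC class II genes. Of 13 cytotoxic effector genes 10 were highest in replicate 7, against 12.6% of all genes. An SD of at least 0.5 was reached by 7 of them, against 1.2% of all measured genes. Granzyme G (Gzmg) had 8.39, 1.45, 2.38, 14.2, 1.95 and 2.41 FPKM in replicates 1, 2, 3, 7, 11 and 12. Granzyme D (Gzmd) had 5.32, 2.50, 2.87, 11.7, 1.87 and 3.17 FPKM, and granzyme F (Gzmf) 7.81, 2.61, 2.51, 10.7, 2.23 and 4.70 FPKM. All were highest in replicate 7 and next in replicate 1. Granzymes C to G are neighbouring copies of similar sequence, so reads may be shared among them and their order within a library is uncertain. The better known members varied less: Gzmb had 31.0, 21.5, 29.1, 31.8, 19.1 and 26.6 FPKM, and Ifng had 2.91, 2.33, 2.30, 2.81, 2.51 and 2.87 FPKM.

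The MHC class II list was highest in replicate 7 for all 7 members, against 12.6% of all genes. Its list score was 0.36 there and -0.22 to 0.10 in the others. Cd74 had 1034, 1162, 1156, 1606, 1093 and 1060 FPKM in replicates 1, 2, 3, 7, 11 and 12, and H2-Aa had 397, 457, 555, 685, 416 and 492 FPKM. Replicate 7 was above every other library for both genes. Ly6c2, a marker of inflammatory monocytes, had another order, with 59.5, 39.2, 92.9, 90.4, 134 and 52.5 FPKM, highest in replicate 11. The monocyte and macrophage list, whose cells carry MHC class II, scored 0.16 in replicate 7 and -0.12 to 0.15 in the others. The T cell list scored -0.02 in replicate 7 and the pan-leukocyte list 0.13.

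Replicate 11 had low levels of checkpoint and regulatory T cell genes and high levels of fat genes. The checkpoint list scored -0.39 in replicate 11 against -0.01 to 0.18 in the others, and the regulatory T cell list -0.36 against -0.01 to 0.12. The regulatory T cell score covers 5 members and leaves out Foxp3, whose mean was 0.852 FPKM. Foxp3 was also lowest in replicate 11, with 0.581 FPKM. Tnfrsf18, which is in the score, was lowest in replicate 2, with 6.80 FPKM against 7.26 FPKM in replicate 11. The median SD of the regulatory T cell list was 0.235, against 0.138 without replicate 11, and that of the checkpoint list was 0.247, against 0.21. Neutrophil genes were mixed. Of the 6 measured, 3 had an SD of at least 0.5, against 1.2% of all measured genes, and 1 did without replicate 11. The 10 listed neutrophil genes summed to 64.1 FPKM in replicate 11 and 65.3 FPKM in replicate 7, against 78.8 to 98.9 FPKM in the others. Mmp9 was lowest in replicate 7, with 27.3 FPKM, and so was Retnlg, with 0.579 FPKM. S100a9 had 7.73, 8.53, 10.9, 7.39, 1.81 and 6.84 FPKM in replicates 1, 2, 3, 7, 11 and 12, with replicate 11 below all others. Nos2 had 20.2, 22.5, 13.7, 15.6, 5.85 and 11.1 FPKM in the same order. The T cell list as a whole did not share this: it scored 0.14 in replicate 11, where 8 of 15 members were highest, against 31.5% of all genes. The adipocyte list scored 0.38 in replicate 11 and -0.16 to -0.03 in the others, and its median SD was 0.334, against 0.221 without replicate 11. The complement factor Cfd, a major product of fat cells, had 74.3 FPKM in replicate 11 and 27.5 to 40.5 FPKM elsewhere, and Adipoq had 9.36 FPKM there and 3.79 to 5.57 FPKM elsewhere. Red cell genes scored 0.46 in replicate 11 and 0.35 in replicate 3, against -0.39 to 0.01 in the others, and 0.21 and 0.43 with the length trend described below removed. The α-globin gene Hba-a1 peaked in replicate 11, with 19.0 FPKM against 4.14 to 8.68 FPKM, whereas the β-globin gene Hbb-bs peaked in replicate 3, with 23.6 FPKM against 17.4 FPKM in replicate 11 and 10.8 to 15.1 FPKM elsewhere; reads may be shared among globin copies.

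**Figure D4:**
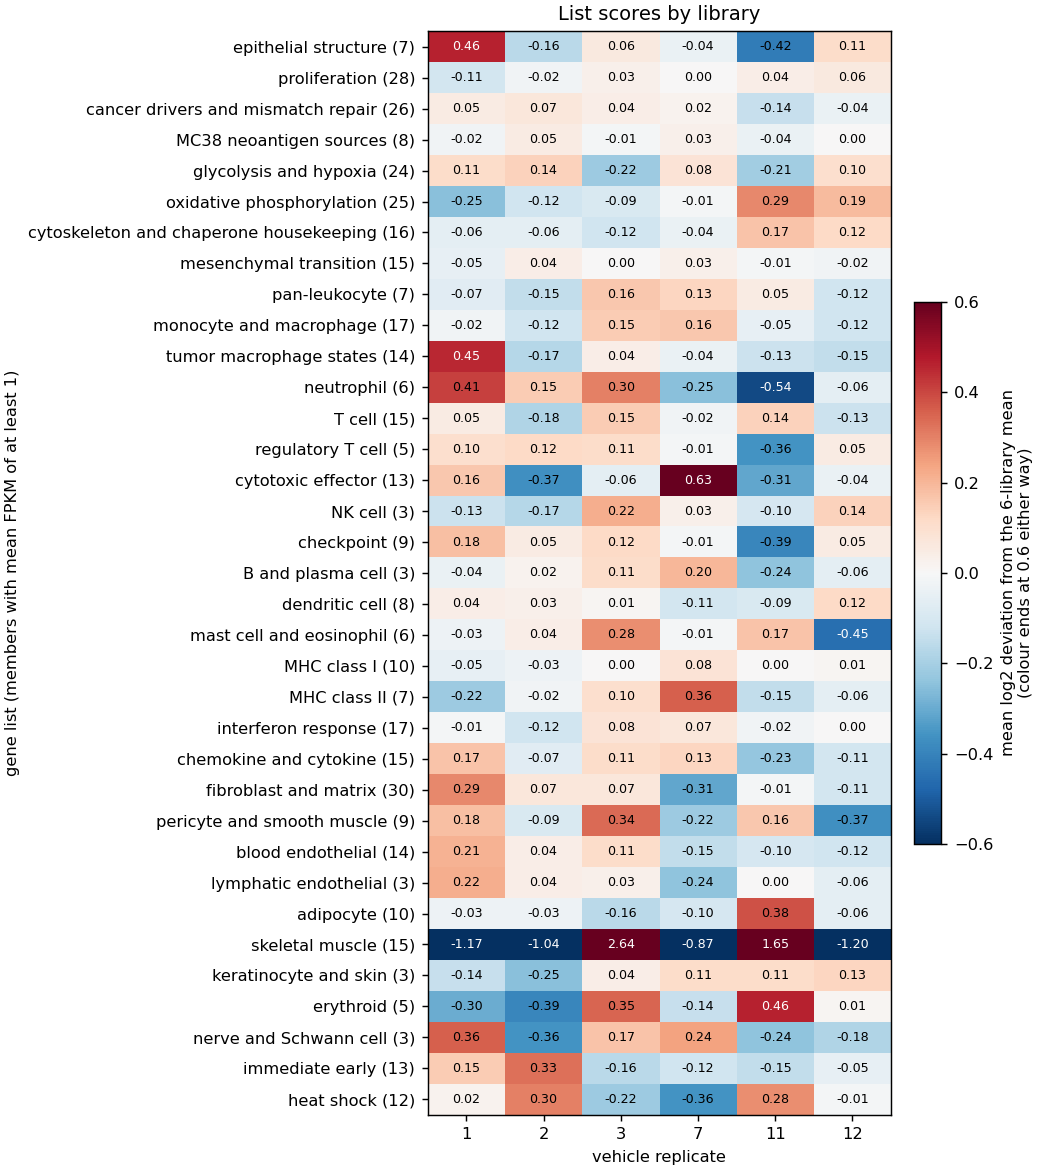
List score of 35 gene lists (rows, with the number of members of mean FPKM of at least 1) in the 6 vehicle replicates (columns); numbers and colour give the mean log2 deviation from the 6-library mean, with colour ending at 0.6 either way. Skeletal muscle scores 2.64 in replicate 3 and 1.65 in replicate 11, cytotoxic effector genes 0.63 in replicate 7 and tumor macrophage states 0.45 in replicate 1.

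Part of the spread followed the length of the gene. Genes were ordered by the length implied by their FPKM and recovered reads and divided into 10 equal bins. In replicate 11 the median deviation from the 6-library mean was 0.271 in the shortest bin (206 to 1282 bases) and -0.301 in the longest (8244 to 56347 bases). In replicate 12 it was 0.143 and -0.153, and in replicate 1 it was -0.198 and 0.122. On the first component the largest loading was that of the muscle gene Acta1 (0.075, implied length 1571 bases). The 4 largest negative loadings were those of Zbed6, Ago2, Lnpep and Tnks, with implied lengths of 5007, 8032, 6758 and 6444 bases, followed by Gm39701 with 2905 bases. Zbed6, a single-exon transcription factor gene inside an intron of another gene, had 16.5, 14.5, 15.1, 13.4, 1.49 and 4.62 FPKM in replicates 1, 2, 3, 7, 11 and 12. Ago2, the effector protein of microRNAs, had 30.0, 25.2, 23.9, 22.2, 5.27 and 9.61 FPKM. Both were lowest in replicate 11 and next lowest in replicate 12. No label records RNA quality or a preparation batch, and their part in this trend was not tested.

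The list results were therefore recomputed with the length trend removed from each library, an alternative chosen after seeing the values. The first component then held 44.1% of the variance, with replicate 11 still apart at a score of 23.3. The median SD over all genes was 0.124, and 142 genes (1.25%) reached an SD of 0.5, of which 108 were among the 137 above. Oxidative phosphorylation genes are short, and their score in replicate 11 was 0.29 as deposited and 0.08 with the trend removed. Their median SD was 0.221 as deposited and 0.0886 with the trend removed. The scores most apart kept their side: skeletal muscle had 2.66 in replicate 3 and 1.51 in replicate 11, cytotoxic effectors 0.64 in replicate 7, tumor macrophage states 0.56 in replicate 1, checkpoint genes -0.43 and adipocyte genes 0.23 in replicate 11. Zbed6 still had an SD of 1.06.

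**Figure D5:**
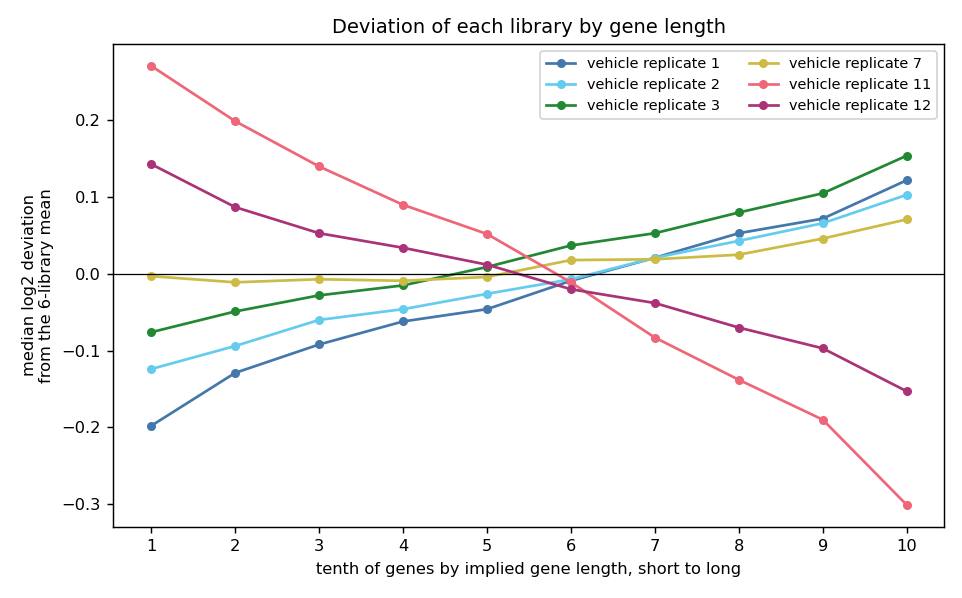
Median log2 deviation from the 6-library mean (vertical axis) over 10 bins of genes ordered by implied length from short to long (horizontal axis), one line per vehicle replicate. The line of replicate 11 runs from 0.271 to -0.301, that of replicate 12 from 0.143 to -0.153, and that of replicate 1 from -0.198 to 0.122.

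At the other end of the ranking, the 10 genes of lowest spread among those with a mean of at least 10 FPKM were Cnot9, Nr1h2, Erlin1, Ccdc47, Ppp1r18, Cap1, Man1b1, Atp6ap1, Tbc1d9b and Sec23b. Cnot9, a subunit of the CCR4-NOT deadenylase complex, had 37.92, 38.58, 37.87, 38.04, 38.09 and 38.03 FPKM in replicates 1, 2, 3, 7, 11 and 12, with an SD of 0.009. Nr1h2, which encodes the oxysterol receptor LXRβ, had 57.2 ± 0.480 FPKM and an SD of 0.012. In 8 of the 10 genes the observed SD was under the counting SD, which for Cnot9 was 0.030, so their order among themselves is not resolved at this depth. Several of them serve the secretory pathway, among them the coat protein gene Sec23b and the endoplasmic reticulum genes Erlin1, Ccdc47 and Man1b1. This is a description of names and was not tested for enrichment.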

How the data were processed

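Stranded mRNA libraries were made from total RNA of 6 vehicle MC38 tumor blocks, per the labels' protocols. The authors deposited FPKM per library, a unit taken from the values because the header names the columns only expression. Per the submitters' processing notes, the tools were DESeq, HTSeq, Cufflinks, HISAT2 and Trimmomatic and the build was GRCm39. Their versions, the annotation and the filter behind the 15170 genes are not given. A deposited base mean signal of the vehicle group served to turn FPKM into whole reads: 100% of the 89709 values above 0 lay within 0.1 of a whole number, and depth was 15784191 to 18125931 reads. These reads gave counting error and implied gene lengths. Those lengths had a Spearman rho of 0.798 with the longest GENCODE transcript over 14729 genes matched by name, a correlation across genes.

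Mean and SD of FPKM, and the SD of log2(FPKM + 1) with n - 1, were computed over the 6 libraries in Python 3.11.15 with numpy 2.4.6 and pandas 2.3.3; the pseudocount of 1 understates the spread of low genes. No groups were compared, and the only test was Dixon's for a library apart from the other 5. The members, the 37 lists and their 518 genes were chosen with earlier results of these data known. Of the lists, the sex chromosome list was not analysed here. Named genes were the 25 of highest mean, the 3 highest of each list, the 20 of highest and 10 of lowest SD, the 3 of highest SD in lists more variable than all genes, 28 fixed genes and those loading on the first 2 components; other list members are named after their values were seen. Steps were tested on simulated data. Alternatives left out each replicate and changed pseudocount, scaling, minimum level and spread measure. Results for a few genes are not reported here.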

Additional observations from a re-analysis of the deposited data

Results flagged for a closer look

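In 9 of 229 named genes and 4 of 35 list scores, 1 library lay far from the other 5. The measure was its gap to the nearest library divided by the whole range, set against Dixon's 95% critical value for 6 samples. For genes the ratio was taken on log2(FPKM + 1), so it differs from the ratio of the FPKM values printed beside it. Chance flags about 1 in 20 groups that were not chosen by their values. Many of the genes were named for their spread in these libraries, and the lists were chosen with earlier results known, so that rate is only a rough guide. For genes high in 1 library, Cd74 had 1606 FPKM in replicate 7 against 1034 to 1162 FPKM in the others (ratio 0.736), Fabp4 had 70.1 FPKM in replicate 11 against 43.4 to 49.0 FPKM (0.748), and Adgre1 had 38.6 FPKM in replicate 3 against 30.2 to 32.0 FPKM (0.756). Vil1 had 0.151 FPKM in replicate 7 against 0 to 0.0535 FPKM (0.629), a level at which few reads decide, and Cnot9, the gene of lowest spread, had 38.6 FPKM in replicate 2 against 37.9 to 38.1 FPKM (0.684). For genes low in 1 library, Aldoa had 468 FPKM in replicate 3 against 561 to 603 FPKM (0.717), while S100a9 had 1.81 FPKM in replicate 11 against 6.84 to 10.9 FPKM (0.710), Tnfrsf4 had 4.53 FPKM in replicate 11 against 6.80 to 7.46 FPKM (0.809) and Ctla4 had 1.07 FPKM in replicate 11 against 2.12 to 2.83 FPKM (0.667).

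Of the list scores, tumor macrophage states were high in replicate 1 (0.661) and adipocyte genes in replicate 11 (0.759). Regulatory T cell genes (0.729) and checkpoint genes (0.667) were low in replicate 11. Replicate 11 was the library apart in 7 of these 13 cases, which share members; it was the highest library for 31.5% and the lowest for 31.5% of all measured genes. In number alone, the 9 genes of 229 are fewer than 1 in 20. Because genes and lists were chosen with values known, neither this count nor the 4 of 35 list scores can be judged against that rate. The skeletal muscle list is not among them because 2 of its libraries were high, and the gap is measured to the nearest library.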

How the results depend on the processing

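No paired analysis was possible because the values come from 1 group and no test between groups was made. The count of genes with a mean of at least 1 FPKM was 11341 to 11408 under every alternative run. Median SD was 0.155 and was 0.129 to 0.16 when each replicate was left out, with the lowest value without replicate 11; it was 0.127 from the median absolute deviation and 0.124 with the length trend removed. The count of genes with an SD of at least 0.5 was 137 and was 86 to 180 when each replicate was left out, with 86 without replicate 11. That count was 353 with a pseudocount of 0.1, 213 with FPKM rescaled to the same sum, 59 from the median absolute deviation, 74 at a mean of at least 5 FPKM and 90 without replicates 3 and 11. With ribosomal genes left out of the sum, class shares were 12.59% (tumor cell), 6.39% (immune) and 1.57% (stroma). Of the 20 genes of highest SD, 12 to 20 were shared when each replicate was left out (12 without replicate 3), 3 with the median absolute deviation and 2 without replicates 3 and 11. By construction the median absolute deviation gives little weight to 2 high libraries of 6; the cause of the other moves was not tested. All other alternatives for these values, 70 in all, moved them by less than the spread or 1.5 times. Of the median SDs of lists 347 stayed within those bounds and 70 did not, and of the SDs of named genes 267 did and 93 did not. The skeletal muscle list, 1.63, had 0.286 from the median absolute deviation and 2.79 with a pseudocount of 0.1. Depth limits genes near 1 FPKM most, where counting SD had a median of 0.0743 for means of 1 to 5 FPKM.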

Other observations

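Some abundant genes outside the lists, chosen after their values were seen, also varied between libraries. Mmp12, the macrophage elastase, had 48.0, 19.6, 16.7, 22.4, 8.46 and 17.5 FPKM in replicates 1, 2, 3, 7, 11 and 12 (SD of log2(FPKM + 1) 0.765). Complement C3 had 141, 79.6, 86.9, 65.5, 45.3 and 57.0 FPKM. Both were highest in replicate 1, as were Retnla, Arg1 and Fn1. The monocyte chemokine gene Ccl12 had 39.5, 22.4, 32.3, 48.5, 74.6 and 46.6 FPKM and was highest in replicate 11, as was Ly6c2.

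Other such genes were lowest in replicate 11, as were 31.5% of all measured genes. In the longest bin of genes the median deviation was -0.301 in replicate 11 and -0.153 in replicate 12. The part of that length trend in the values below was not tested. Ahnak, a very large scaffold protein, had 70.6, 68.6, 71.0, 73.4, 27.4 and 46.0 FPKM, and Prrc2c had 58.7, 52.2, 50.7, 47.1, 19.9 and 28.4 FPKM, with replicate 12 next lowest for both. The ligand gene Ulbp1, which natural killer cells and T cells recognise through NKG2D, had 35.4, 35.0, 32.7, 26.5, 13.3 and 18.2 FPKM in the same order of libraries.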
